A study of Mus musculus with 8 samples.

Results

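The F-box and Asb genes examined here encode the exchangeable substrate receptors of cullin-RING ubiquitin ligases. They were chosen by name: every non-control probe of the array whose gene name is Fbxo, Fbxl, Fbxw or Asb followed by a number, with Fbxo32 left out. That rule found 90 genes on 162 probes, of 27398 gene names on 41174 probes: 35 Fbxo, 18 Fbxl, 19 Fbxw and 18 Asb genes. Of these, 70 genes were measured well enough to be tested, 28 Fbxo, 16 Fbxl, 10 Fbxw and 16 Asb, and the other 20 were not above background on enough arrays.

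RNA came from the tibialis anterior, a fast hindlimb muscle, of 8 male C57BL/6 mice aged 8 weeks. Prep1, the product of Pknox1, is a homeodomain transcription factor that binds DNA with Pbx partners. The 4 Prep1deltaSM mice had Prep1 ablated in skeletal muscle, and the 4 Prep1f/+ mice are the controls, which the study describes as Prep1 flox mice. The labels do not give the Cre line that drives the deletion, so the cells and the age at which it acts are not stated. The control label reads as a floxed allele beside a wild-type allele, without the deletion, and records nothing further. The description as Prep1 flox mice does not mention the wild-type allele. Each mouse gave 1 array.

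In an SCF ligase the F-box protein binds Skp1, which docks it on the scaffold Cul1 and the RING protein Rbx1; the rest of the F-box protein grips the substrate. The families differ there: Fbxw proteins carry WD40 repeats, Fbxl proteins leucine-rich repeats, and Fbxo proteins other domains. Asb proteins hold substrates with ankyrin repeats and use a SOCS box to reach elongin B and C, Cul5 and Rnf7. The ligase then moves ubiquitin to the substrate, often for degradation by the proteasome, and several members of both groups are known for their expression in striated muscle.

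Values are log2 signals relative to the 75th percentile of each array, so that 0 is that percentile; they depend on the probe and are not compared between probes. A gene is represented by its brightest probe, and a difference is the Prep1deltaSM mean minus the Prep1f/+ mean. Signals well above background numbered 23787 to 27123 of 43379 spots per array, and arrays correlated at 0.9817 to 0.9937. Pknox1 checked the labels. Its values were -1.84, -2.08, -2.28 and -1.96 in Prep1deltaSM muscles, against -0.09, -0.31, -0.21 and -0.51 in Prep1f/+ muscles, which left 29.5% of the signal (difference -1.76, limma adjusted p = 0.0072). It was the one gene of 16016 past an adjusted p of 0.05, 0.00624% of the genes tested; with slide as a block the difference was the same and the adjusted p 0.0619, which left 0 genes past 0.05. Its adjusted p also missed 0.05 without Prep1deltaSM muscle 2 (0.0738) or Prep1f/+ muscle 2 (0.0656) or 3 (0.0641). Prep1f/+ muscles 1 and 4 stood apart on the first principal component, which carried 24.4% of the variance: they lay at -23.55 and -41.00, the other 6 arrays between -3.08 and 17.05. The 10 fast-myofibre markers were all detected, as the tissue label calls for, with a median difference of 0.01.

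No member passed an adjusted p of 0.05. Without adjustment, limma gave 16 of the 70 tested members a p under 0.05 (22.9%), beside 15.9% of all genes. Of the 16, 12 were lower in Prep1deltaSM (17.1% of members, beside 10.4% of all genes) and 4 were higher (5.71%, beside 5.54%). In 10 members the arrays of the groups did not overlap (14.3%, beside 10.5% of all genes), 9 of them lower (12.9%, beside 6.74%) and 1 higher (1.43%, beside 3.72%). By sign, 24 members were higher and 46 lower. The median difference of members was -0.11, beside -0.07 over all genes, of which 5972 were higher and 10044 lower. Leaving out 1 array at a time gave 0 to 6 higher members, 0 without Prep1f/+ muscle 4, and centring arrays on the median gave 0 higher and 12 lower. Member shares at an unadjusted p under 0.05 were 12.9% to 22.9% in those fits, beside 11.5% to 17.0% of all genes. With slide as a block, 3 were higher and 11 lower, beside 15.8% of all genes in either direction. With Prep1f/+ muscles 1 and 4 left out there were 7 higher and 14 lower, beside 16.8% of all genes, and 27 members without overlap (38.6%, beside 31.4% of all genes).

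**Figure D1:**
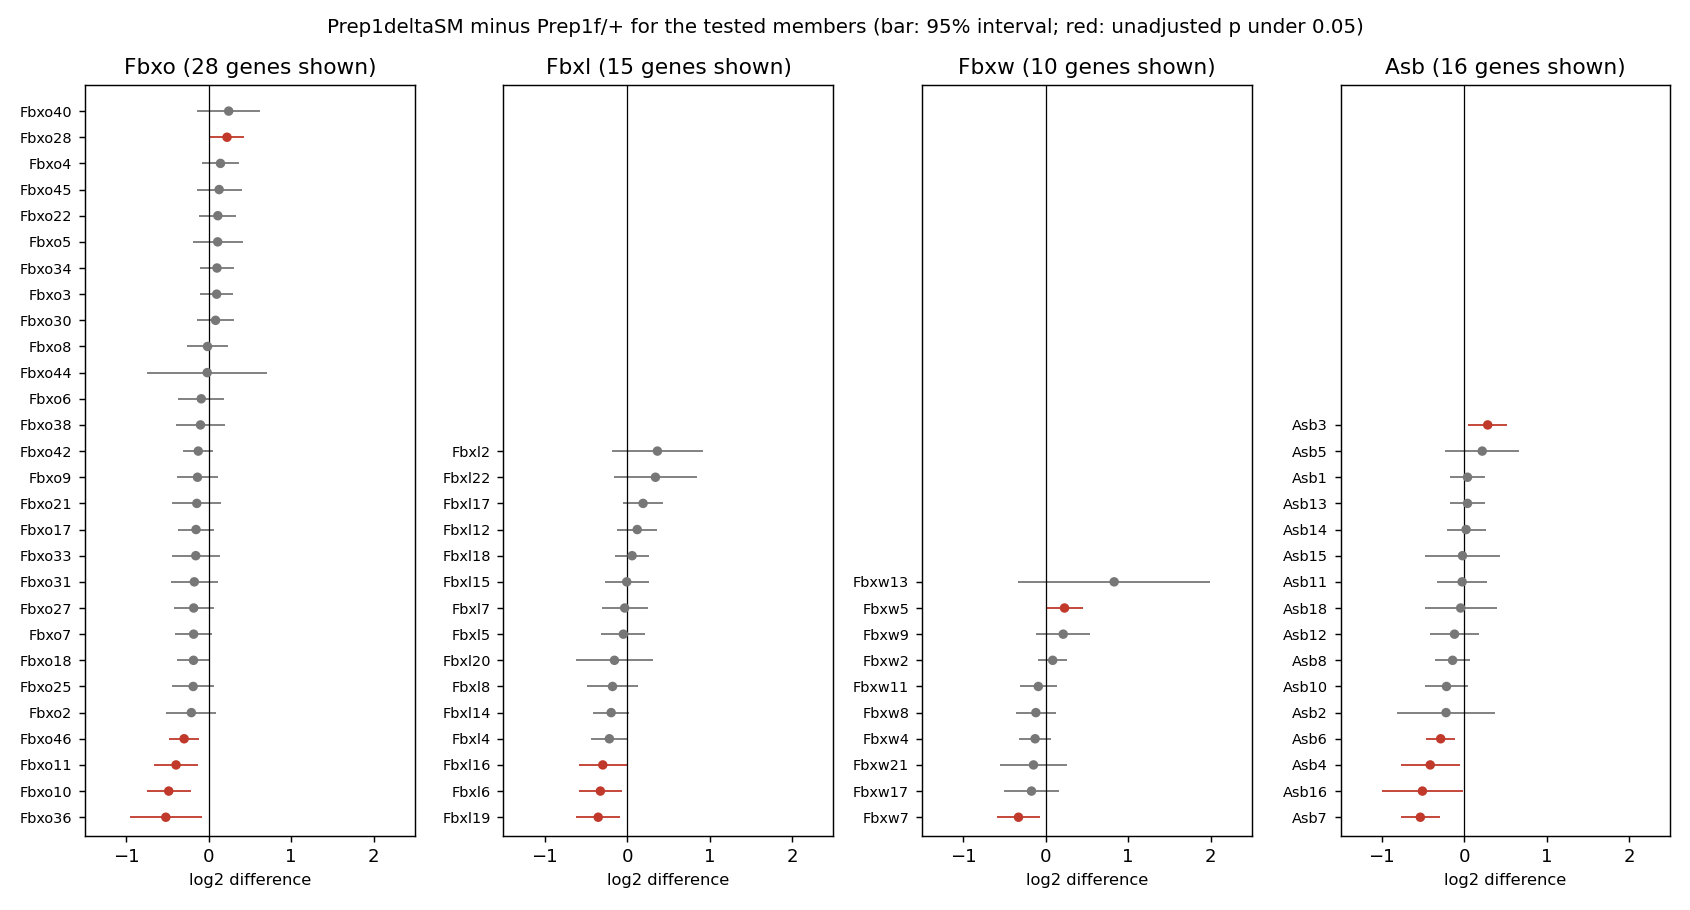
Difference in log2 signal, Prep1deltaSM minus Prep1f/+, of 69 tested members, in 1 panel per family; points are limma estimates, bars their 95% intervals, and red marks an unadjusted p under 0.05. Of the 15 red genes 12 lie left of 0, and most intervals cross 0.

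Among the Fbxo genes, the median difference was -0.13, with 9 higher and 19 lower. Fbxo10, whose human protein is known to target BCL2, was the clearest of them. Its values were -0.55, -0.42, -0.50 and -0.79 in Prep1deltaSM muscles, against 0.08, -0.17, -0.26 and 0.02 in Prep1f/+ muscles (difference -0.48 ± 0.12 SE, 71.5% of the control signal, limma unadjusted p = 0.00282, adjusted p = 0.158). No Prep1deltaSM muscle reached the lowest control, and Prep1deltaSM was lower on each of the 4 slides. With Prep1f/+ muscles 1 and 4 left out the difference was -0.35. Fbxo46 had -1.0, -0.88, -1.03 and -0.86 in Prep1deltaSM muscles, against -0.59, -0.68, -0.63 and -0.69 in Prep1f/+ muscles (difference -0.30, adjusted p = 0.177), again with no overlap. Its other tested probe, nearer the 3′ end, gave -0.06 with overlapping groups. Fbxo11, a receptor for BCL6 in human lymphocytes, measured 0.01, 0.15, 0.16 and -0.06 in Prep1deltaSM muscles, against 0.61, 0.30, 0.28 and 0.65 in Prep1f/+ muscles (difference -0.40, adjusted p = 0.201). The groups did not overlap, and Prep1f/+ muscles 1 and 4 were the highest; without those the difference was -0.22. Fbxo18, also named Fbh1, is a DNA helicase with an F-box; it was separate but close, at 2.75 to 2.88 in Prep1deltaSM muscles, against 2.91 to 3.19 in Prep1f/+ muscles (difference -0.18, unadjusted p = 0.0686). Fbxo36 had the lowest difference of the family, -0.52 (unadjusted p = 0.025, adjusted p = 0.254), but Prep1f/+ muscle 4, at -1.89, lay among the Prep1deltaSM values of -2.28 to -1.71.

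Fbxo28 was the Fbxo gene higher at an unadjusted p under 0.05. Its values were 1.58, 1.56, 1.43 and 1.53 in Prep1deltaSM muscles, against 1.51, 1.21, 1.25 and 1.25 in Prep1f/+ muscles (difference 0.22, unadjusted p = 0.0422). Prep1f/+ muscle 1 sat among the Prep1deltaSM values and apart from the other controls. The other tested Fbxo28 probes gave 0.15, without overlap, and -0.03, so the sign depends on the probe. Fbxo2, Fbxo6, Fbxo17, Fbxo27 and Fbxo44 belong to a family known for receptors of glycoproteins. By brightest probe they had differences of -0.21, -0.09, -0.15, -0.18 and -0.02, none at an unadjusted p under 0.05. Second probes gave 0.33 for Fbxo6, with no overlap, and 0.40 for Fbxo44. The other probes of Fbxo2 gave -0.33 and -0.21. Fbxo7, a Parkin partner in clearing damaged mitochondria, was at -0.18 (unadjusted p = 0.0997), and the cyclin D1 receptors Fbxo31 and Fbxo4 were at -0.17 and 0.14. Fbxo22 stood at 0.11, and Fbxo25, the closest relative of Fbxo32, at -0.19. Other tested probes gave 0.26, without overlap, for Fbxo22 and -0.21 for Fbxo25.

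Among the Fbxl genes, the median difference was -0.04, with 6 higher and 10 lower. Among the lower ones were Fbxl19, Fbxl6, Fbxl16 and Fbxl4. Fbxl19, which binds unmethylated CpG islands, had -1.56, -1.98, -1.60 and -1.78 in Prep1deltaSM muscles, against -1.28, -1.40, -1.54 and -1.29 in Prep1f/+ muscles (difference -0.35, unadjusted p = 0.0162, adjusted p = 0.227). The groups just failed to overlap, and a second probe gave -0.26. Fbxl4, a mitochondrial receptor whose loss in people depletes mitochondrial DNA, had 0.89, 1.10, 1.04 and 1.05 in Prep1deltaSM muscles, against 1.25, 1.12, 1.43 and 1.15 in Prep1f/+ muscles (difference -0.22, unadjusted p = 0.0554). Its groups were separate, but Prep1deltaSM muscle 2 and Prep1f/+ muscle 2 nearly touched. Fbxl6 and Fbxl16 differed by -0.33 and -0.30 with overlapping groups. Fbxl22, a sarcomeric receptor for filamin C and alpha-actinin, had -0.43, -1.28, -0.48 and -1.14 in Prep1deltaSM muscles, against -1.29, -0.90, -1.40 and -1.11 in Prep1f/+ muscles. Prep1deltaSM muscles 1 and 3 were high and the others were not, so the difference of 0.34 had an unadjusted p of 0.153. The other tested Fbxl22 probe gave -0.14. Fbxl5, the iron-sensing receptor for IRP2, was at -0.05, and Fbxl14, a receptor for Snail, at -0.19. Other tested probes gave 0.39, without overlap, and 0.04 for Fbxl5, and 0.02 for Fbxl14.

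The 10 tested Fbxw genes had a median difference of -0.10, 4 of them higher and 6 lower. Fbxw7, the tumour suppressor that targets cyclin E, Myc, Jun and Notch, had 1.93, 1.93, 1.70 and 1.64 in Prep1deltaSM muscles, against 2.18, 2.30, 2.11 and 1.93 in Prep1f/+ muscles (difference -0.33, unadjusted p = 0.0188, adjusted p = 0.235). The groups met almost exactly at 1.93. Fbxw5 had 0.95, 1.07, 1.00 and 0.91 in Prep1deltaSM muscles, against 0.97, 0.78, 0.66 and 0.62 in Prep1f/+ muscles (difference 0.23, unadjusted p = 0.0486). Only Prep1f/+ muscle 1 reached the Prep1deltaSM values. Fbxw8, which works with Cul7 rather than Cul1, was at -0.12 and Fbxw11, one of the beta-TrCP receptors for IkB-alpha and beta-catenin, at -0.09 by its brightest probe. Fbxw13 had the largest difference of any member, 0.83, but it was dim and rested on 1 array: Prep1f/+ muscle 4 was at -6.34, against -4.25 to -3.98 in the other controls and -4.32 to -3.38 in Prep1deltaSM muscles (unadjusted p = 0.141).

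The 16 tested Asb genes had a median difference of -0.08, 5 of them higher and 11 lower. Asb7, which in human cells is known for degrading a spindle protein, had the smallest p of all members. Its values were 0.54, 0.64, 0.78 and 0.69 in Prep1deltaSM muscles, against 1.36, 1.14, 1.00 and 1.27 in Prep1f/+ muscles (difference -0.53 ± 0.10 SE, 69.1% of the control signal, limma unadjusted p = 0.000756, adjusted p = 0.129). Every Prep1deltaSM value was below every Prep1f/+ value. Asb6, which binds an adaptor of the insulin receptor in mouse adipocytes, was 1.22, 1.17, 1.18 and 1.07 in Prep1deltaSM muscles, against 1.46, 1.51, 1.43 and 1.38 in Prep1f/+ muscles (difference -0.29, adjusted p = 0.178). The groups were separate by more than the range within the controls, and Asb6 has a single probe. Both genes gave an exact two-sided permutation p of 0.0286, the smallest that the 70 assignments allow.

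Asb4, known from vascular differentiation in the placenta, had 1.46, 1.77, 1.77 and 1.49 in Prep1deltaSM muscles, against 2.37, 1.99, 2.10 and 1.68 in Prep1f/+ muscles (difference -0.41, unadjusted p = 0.0292). Prep1f/+ muscle 4 lay inside the Prep1deltaSM range. Asb3 was the Asb gene higher at an unadjusted p under 0.05, with -1.0, -0.62, -0.73 and -0.69 in Prep1deltaSM muscles, against -1.07, -1.03, -0.95 and -1.14 in Prep1f/+ muscles (difference 0.28, unadjusted p = 0.0236). Prep1deltaSM muscle 1 overlapped the controls. Its second tested probe gave 0.49 with no overlap.

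**Figure D2:**
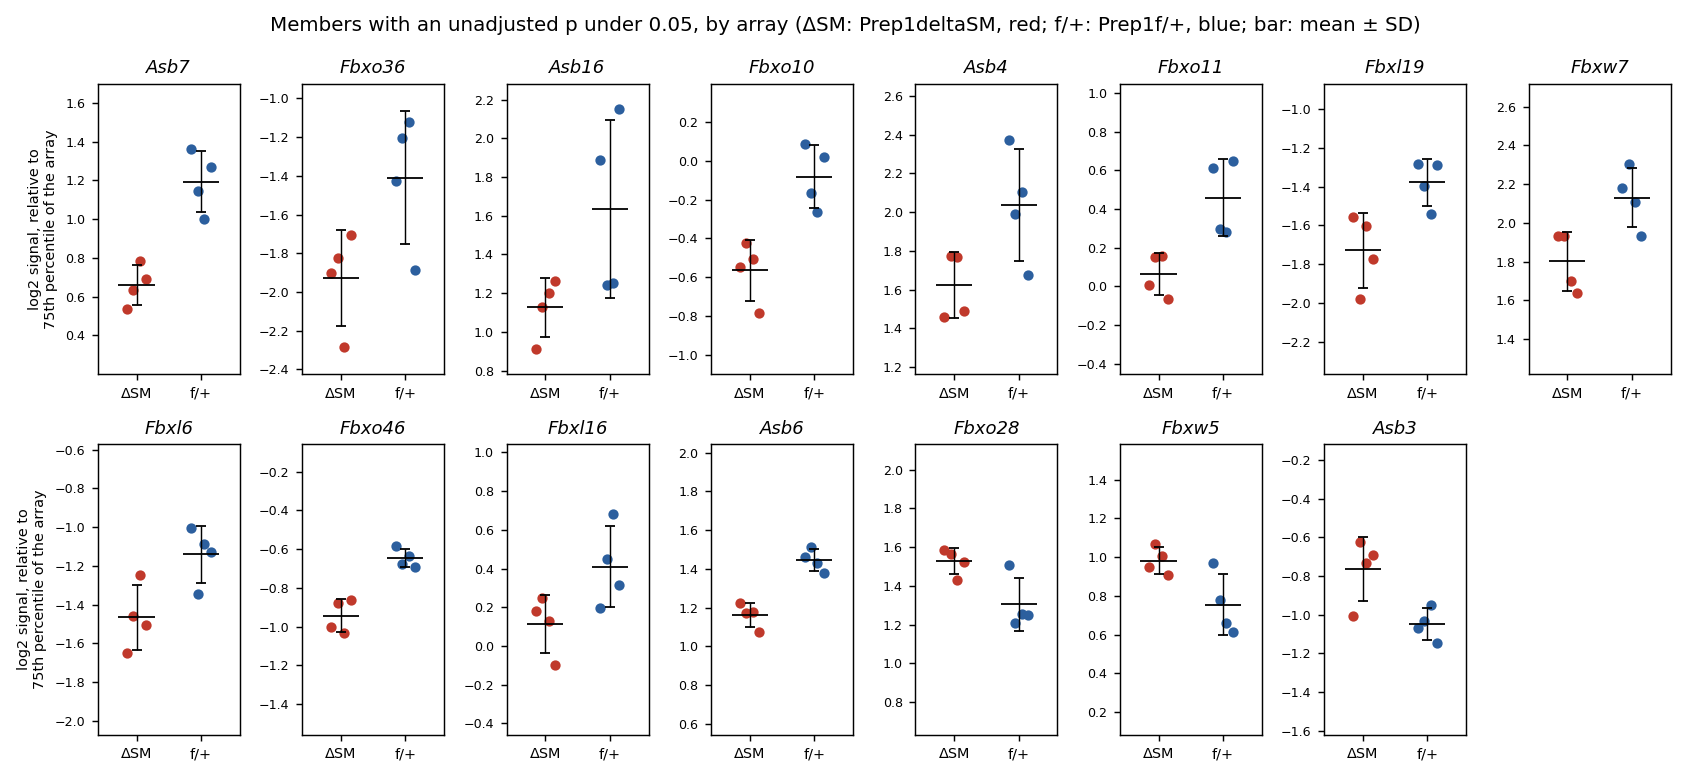
Log2 signal of 15 members with an unadjusted p under 0.05, by array, Prep1deltaSM left and Prep1f/+ right in each panel, with the mean and SD (n = 4 each); all panels span the same log2 range. Asb7, Fbxo10, Asb6 and Fbxo46 show a gap between the groups, while Asb16, Fbxo36 and Fbxo28 have controls among the Prep1deltaSM values.

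Receptors known mainly from striated muscle form a list of 11 genes. Of these, 3 were higher and 8 lower, with a median difference of -0.04, and Asb16 was the one with an unadjusted p under 0.05 (9.09% of the list, beside 15.9% of all genes). Asb16 had 0.91, 1.13, 1.20 and 1.26 in Prep1deltaSM muscles, against 1.89, 1.24, 1.25 and 2.15 in Prep1f/+ muscles (difference -0.51, unadjusted p = 0.0443). Prep1f/+ muscles 1 and 4 were the high ones, and the other 2 controls lay at the upper end of the Prep1deltaSM values; with muscles 1 and 4 left out the difference was -0.12.

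Fbxo40, the muscle receptor for IRS1, had 1.93, 2.0, 1.75 and 1.67 in Prep1deltaSM muscles, against 2.09, 1.48, 1.47 and 1.35 in Prep1f/+ muscles. Prep1f/+ muscle 1 was above all Prep1deltaSM values and the other controls below them, and the difference was 0.24 (95% interval -0.14 to 0.63, unadjusted p = 0.186). Without that control it was 0.40. The other tested Fbxo40 probe gave 0.00 over all arrays. Asb2, the receptor for filamins, had 4.78, 4.83, 4.77 and 5.04 in Prep1deltaSM muscles, against 5.94, 4.91, 4.69 and 4.78 in Prep1f/+ muscles (difference -0.22). Muscle 1 was again the high control, and without it the difference was 0.07. Asb5 measured 4.44, 4.52, 4.46 and 5.01 in Prep1deltaSM muscles, against 4.20, 4.04, 4.52 and 4.80 in Prep1f/+ muscles (difference 0.22, unadjusted p = 0.295). The remaining muscle receptors, Asb8, Asb10, Asb11, Asb12, Asb14, Asb15 and Asb18, ran from -0.22 for Asb10 to 0.02 for Asb14, with overlapping groups. Among receptors induced in wasting muscle, Fbxo30 (MUSA1) was at 0.08 and Fbxo21 (SMART) at -0.14, with intervals of -0.14 to 0.31 and -0.44 to 0.15. The other tested Fbxo21 probes gave 0.08 and 0.07. Fbxo32 (atrogin-1), outside the set, differed by -0.88 (adjusted p = 0.192).

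Genes with several probes gave a second reading. Of 40 members with more than 1 tested probe, 18 had all probes on the same side of 0 (45.0%, beside 50.4% of 5851 genes). The brightest probe was below the mean of the gene's dimmer probes in 27 of the 40 (67.5%), as in 71.2% of the 5851 genes. When the probes of a gene were averaged, 6 members were higher and 5 lower at an unadjusted p under 0.05, against 4 and 12 by the brightest probe; the 11 are 15.7% of members, equal to the 15.7% of all genes, so that by this summary members were not called more often than other genes. By sign, 32 were higher and 38 lower.

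**Figure D3:**
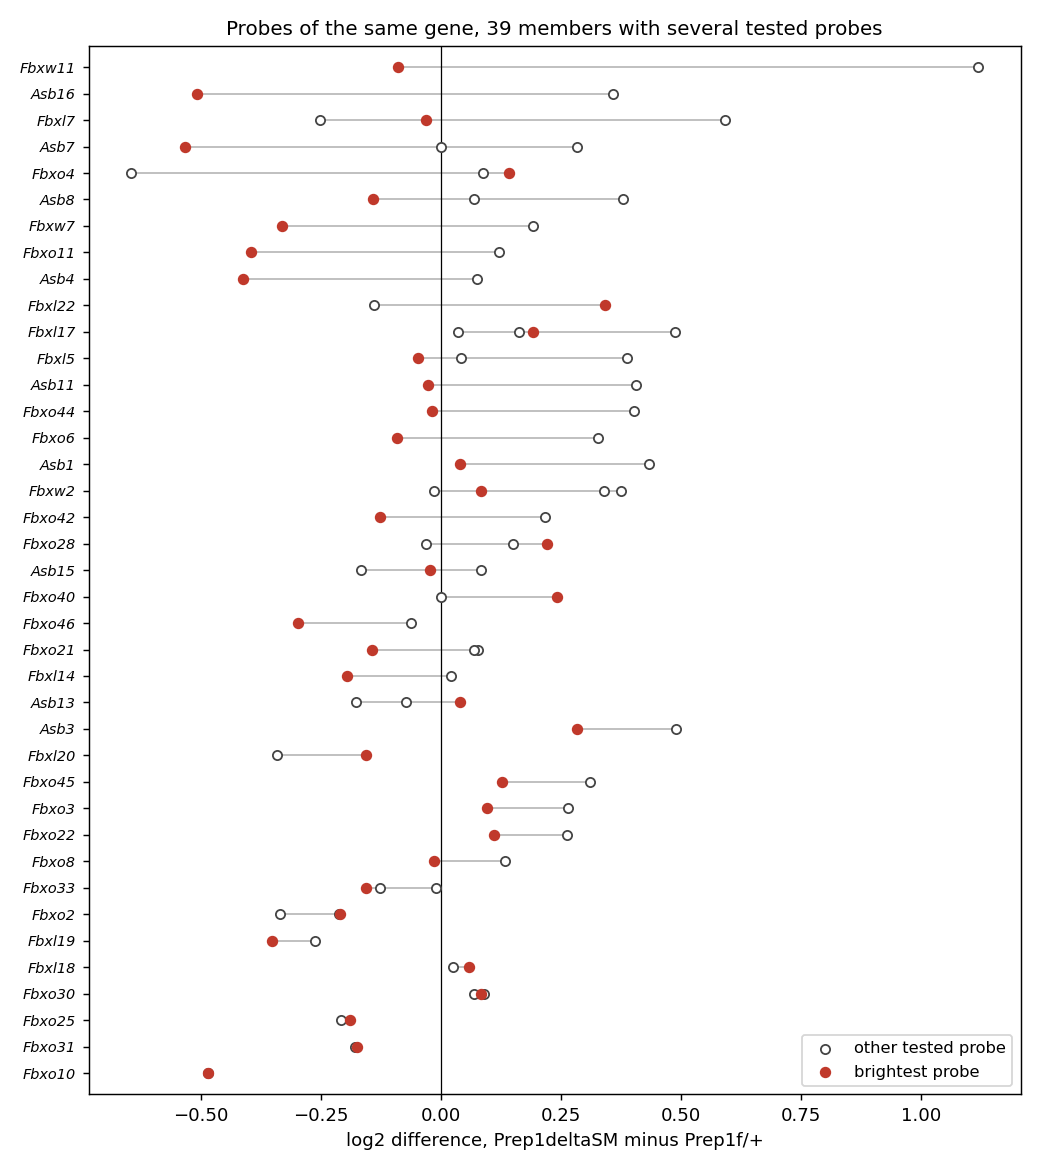
Difference in log2 signal, Prep1deltaSM minus Prep1f/+, of every tested probe of 39 members with more than 1, ordered by the spread between probes; filled red is the brightest probe and open circles are the others. Asb7, Asb16, Fbxw7 and Fbxo11 have a brightest probe left of 0 and another right of it, while the neighbouring probes of Fbxo10 coincide.

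Asb7 is the plainest case, and its probes are shown with those of Fbxw11 and Fbxo10 by their first 30 bases. The sign of Asb7 and Fbxw11 depends on which probe is read, while the probes of Fbxo10, which are neighbours, share 1 sign. Each probe is 60 bases long, all letters are lower case because no position is singled out, and the mm9 positions come from the array files.
Asb7 probe at chr7:73789638-73789697: gtaagacaccaggaaagcgtagcttaatgg
Asb7 probe at chr7:73804984-73805043: gagtacaggagtgacattattaatgcaaaa
Asb7 probe at chr7:73824048-73824107: gccggggatgttcacacagtacgaaagatg
Fbxw11 probe at chr11:32646601-32646660: tatcatgacggctttgtactgtggaatgtg
Fbxw11 probe at chr11:32580357-32580416: gttgaaacttgcagtagtgtgtttaatgca
Fbxo10 probe at chr4:45047272-45047331: agggggagctctgatttctccctaagcact
Fbxo10 probe at chr4:45047172-45047231: gagtcgctgtataaaaatgctgcctttgtt

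The first Asb7 probe, the brightest, was designed on a cDNA clone that the array annotation calls unclassifiable, and it gave the difference of -0.53. The other two were designed on the RefSeq transcript and gave 0.00 and 0.28, so the lower value of Asb7 rests on the 3′-most of its probes; averaged over the 3, the difference was -0.08. Which exon or untranslated part each lies in was not determined here. For Fbxw11 the probe on the RefSeq transcript gave -0.09, and the probe on a separate cDNA clone gave 1.12. That second probe had -3.48, -3.70, -4.16 and -3.87 in Prep1deltaSM muscles, against -5.23, -5.08, -4.45 and -4.92 in Prep1f/+ muscles. It was well above background on 4 of 4 Prep1deltaSM arrays and 1 of 4 Prep1f/+ arrays, so it passed the filter through Prep1deltaSM, and its control level is mostly at background; the difference is a description only. For Fbxo10 the neighbouring probes gave -0.48 and -0.49, both separate between the groups (limma adjusted p = 0.115 and 0.0971 over all probes). The array has no other Fbxo10 probe. Unlike those of Asb7 and Fbxw11, its probes lie side by side, so agreement with a distant probe could not be seen.

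Other members divided in the same way. Asb16 gave -0.51 by its brightest probe and 0.36 by the probe on its RefSeq transcript (unadjusted p = 0.0191). Fbxw7 gave -0.33 and 0.19, Fbxo11 -0.40 and 0.12, and Asb4 -0.41 and 0.08. Asb8 gave -0.14, 0.07 and 0.38, Fbxl7 -0.03, -0.25 and 0.59, and Fbxo4 0.14, 0.09 and -0.65. Among the members whose probes kept 1 sign, besides Fbxo10, were Fbxl19 at -0.35 and -0.26, Asb3 at 0.28 and 0.49, and Fbxl17 at 0.19, 0.16, 0.04 and 0.49. Fbxo30 gave 0.08, 0.07 and 0.09.

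The position of the probe moved with the group over the whole array. Where probes could be placed on 1 strand of 1 chromosome, the 3′-most probe had the lower difference in 22 of 34 members (64.7%), as in 68.3% of 4234 genes. Centred per gene, the median signal of the 3′-most probe minus the upstream probes over all genes was -0.113, -0.048, -0.038 and -0.015 in Prep1deltaSM arrays, against 0.045, 0.052, 0.132 and -0.013 in Prep1f/+ arrays. For the members it was -0.058, -0.088, -0.104 and -0.052 in Prep1deltaSM arrays, against 0.056, 0.033, 0.182 and -0.039 in Prep1f/+ arrays. Every Prep1deltaSM array lay below every Prep1f/+ array in both, though Prep1f/+ muscle 4 lay close to them. The brightest probe was the 3′-most in 24 of the 34 members (70.6%), and the part of this shift in the lower member values was not tested.

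**Figure D4:**
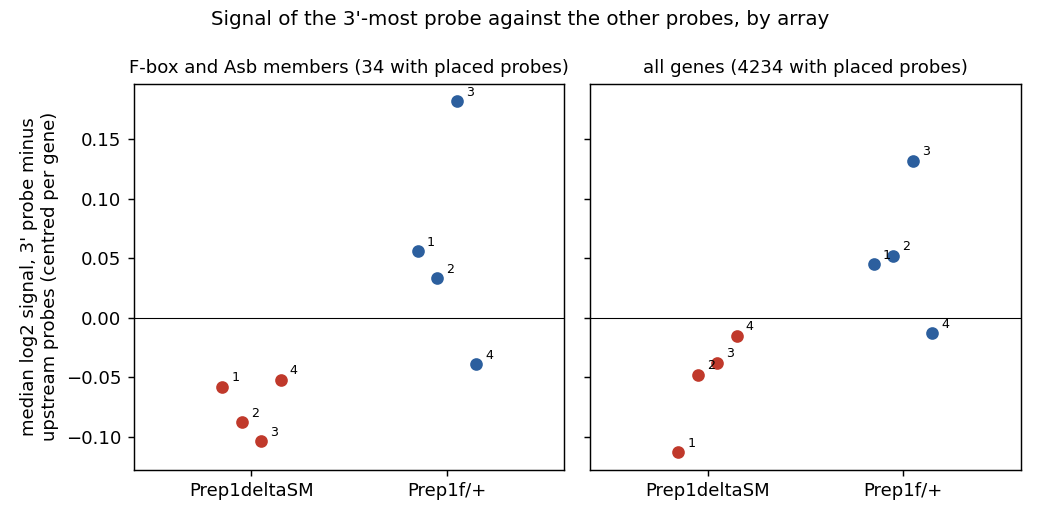
Median log2 signal of the 3′-most probe minus the gene's upstream probes, centred per gene, for each array, over 34 members (left) and 4234 genes (right); Prep1deltaSM is left in each panel and numbers mark the replicate. The Prep1deltaSM arrays lie below the Prep1f/+ arrays, with Prep1f/+ muscle 4 nearest to them.

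The partners that the receptors dock on were taken from lists of complex members. For the F-box group, the scaffold Cul1 had 0.95, 0.92, 0.90 and 0.89 in Prep1deltaSM muscles, against 0.58, 0.80, 0.64 and 0.56 in Prep1f/+ muscles (difference 0.27, adjusted p = 0.208), with no overlap. The adaptor Skp1a and the RING protein Rbx1 differed by 0.00 and -0.14. For the Asb group, Cul5 was at -0.12, Rnf7 at -0.09 and elongin C (Tceb1) at 0.08. Elongin B (Tceb2) had 6.57, 6.72, 6.84 and 6.91 in Prep1deltaSM muscles, against 7.03, 7.10, 6.99 and 7.05 in Prep1f/+ muscles (difference -0.28, adjusted p = 0.227), without overlap. Cul2, the alternative scaffold for elongin complexes, was higher by 0.42 (adjusted p = 0.175), also without overlap.

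Of 25 genes of the NEDD8 and COP9 cycle that switches cullins on and off, 18 were lower and 7 higher; their median of -0.07 equals that of all genes to 2 decimals. Glmn, which masks Rbx1, had -1.61, -1.45, -1.67 and -1.70 in Prep1deltaSM muscles, against -2.09, -2.21, -2.12 and -2.14 in Prep1f/+ muscles (difference 0.53, adjusted p = 0.107). The groups were well apart. The signalosome subunits Cops8 and Cops7b differed by 0.34 and -0.45 and the NEDD8 ligase Dcun1d1 by -0.28, at unadjusted p-values of 0.0085, 0.042 and 0.0147. With Glmn, these are 16.0% of the 25 genes, beside 15.9% of all genes at an unadjusted p under 0.05. Of 17 other SOCS-box genes, 8 were higher and 9 lower. Spsb3, Socs7 and Wsb2 were at 0.41, 0.40 and 0.22, and Socs5 and Rab40c at -0.41 and -0.30, all at unadjusted p under 0.05. They are 29.4% of that list, beside 15.9% of all genes. Of 4 tested F-box genes with other names, Kdm2a, a histone demethylase, was at -0.25 (unadjusted p = 0.0409).

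Of 21 tested genes for known substrates, the median difference was 0.08, 13 being higher and 8 lower. The clock repressors Cry1 and Cry2 were higher by 0.57 and 0.50, without overlap between groups (unadjusted p = 0.00547 and 0.0263, limma adjusted p = 0.182 and 0.257). A mean log2 signal was taken over 10 clock genes, both of these among them, each centred on its mean over the 8 arrays. It was 0.17, 0.28, 0.15 and 0.02 in Prep1deltaSM muscles, against -0.90, 0.11, 0.19 and -0.01 in Prep1f/+ muscles. The mean was low in Prep1f/+ muscle 1, but the clock genes did not move together there. In that muscle Arntl was at 1.74, against -1.68 to -1.01 in the other controls. Per2 was at -6.78, against -1.51 to -1.19 in the other controls. Prep1f/+ muscle 1 was the highest control for Cry1, at -3.16, and the lowest for Cry2, at -0.93. The part of that muscle in these differences was not tested. Of the lower ones, Cdc25a, a cell-cycle phosphatase, was at -0.47, Ckb, the creatine kinase bound by Asb9, at -0.43, and Nfkbia, which encodes IkB-alpha, at -0.35, all at unadjusted p under 0.05. With Cry1 and Cry2, they are 23.8% of the 21 substrate genes, beside 15.9% of all genes. The values are transcript levels. Ligases act on the proteins, which the arrays do not measure. None of these partner or substrate genes passed an adjusted p of 0.05.

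Markers of other cells in the sample, and of slow myofibres, also differed between muscles. In bulk RNA fewer cells of a type and less RNA per cell cannot be told apart. Centred list means for 5 adipocyte markers were 1.11, -2.16, 0.95 and -1.62 in Prep1deltaSM muscles, against -0.07, 1.14, 1.19 and -0.54 in Prep1f/+ muscles. All 5 were lower, as were 7 of 7 tendon, 7 of 7 leukocyte, 8 of 8 slow-fibre and 6 of 8 fibroblast markers, with median differences of -1.03, -0.53, -0.47, -0.48 and -0.37. Prep1deltaSM muscles 2 and 4 were the low ones for adipocyte, tendon and fibroblast markers. Each marker counted was above background on 4 or more arrays, and endothelial markers had a median of -0.01. The part of these cells and of slow fibres in the member values was not tested.

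The 20 members that could not be tested were above background on 0 to 2 arrays each. They were 9 Fbxw, 7 Fbxo, 2 Fbxl and 2 Asb genes: Fbxw14, Fbxw15, Fbxw16, Fbxw18, Fbxw19, Fbxw22, Fbxw24, Fbxw26 and Fbxw27, Fbxo15, Fbxo16, Fbxo24, Fbxo39, Fbxo41, Fbxo43 and Fbxo48, Fbxl13 and Fbxl21, and Asb9 and Asb17. For 16 of them no array was above background. With no filter on dim probes all 90 members entered the fit, and 0 passed an adjusted p of 0.05.

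RefSeq promoters, 250 bases before to 50 after each start in GRCm38.p6, were available for 72 members as 99 sequences. They were searched on both strands for TGACAG, the core bound by Prep and Meis homeodomains. The composite searched was TGATTGAC, a Pbx half-site joined to TGAC, the start of that core. A composite match can overlap a core match but need not hold the whole core. The core was found in 14 of 99 member promoters (14.1%), beside 19.2% of 32851 promoters of all genes. The composite was found in 2 (2.02%), those of Asb12 and Fbxl7, beside 0.77% of all. By direction, the core was in 7 of 59 promoters of lower members and 5 of 25 of higher members. Shown here are the promoter with both motifs and those of Fbxo10, Fbxw7 and Fbxo28, members with an unadjusted p under 0.05 whose promoters hold the core; capitals mark the motif on either strand.
Asb12 at chrX:95478080-95478379, minus strand: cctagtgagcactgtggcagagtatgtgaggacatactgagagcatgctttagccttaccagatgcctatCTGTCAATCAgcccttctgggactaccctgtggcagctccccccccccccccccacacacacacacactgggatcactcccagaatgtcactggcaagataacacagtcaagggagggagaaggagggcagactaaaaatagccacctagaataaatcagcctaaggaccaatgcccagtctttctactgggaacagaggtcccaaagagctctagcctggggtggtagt
Fbxo10 at chr4:45084506-45084805, minus strand: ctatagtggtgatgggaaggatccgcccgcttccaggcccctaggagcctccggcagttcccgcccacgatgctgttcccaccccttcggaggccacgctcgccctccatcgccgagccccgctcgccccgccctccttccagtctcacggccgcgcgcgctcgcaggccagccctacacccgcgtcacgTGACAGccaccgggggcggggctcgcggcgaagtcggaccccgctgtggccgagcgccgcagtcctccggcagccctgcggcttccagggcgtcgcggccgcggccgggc
Fbxw7 at chr3:84863895-84864194, plus strand: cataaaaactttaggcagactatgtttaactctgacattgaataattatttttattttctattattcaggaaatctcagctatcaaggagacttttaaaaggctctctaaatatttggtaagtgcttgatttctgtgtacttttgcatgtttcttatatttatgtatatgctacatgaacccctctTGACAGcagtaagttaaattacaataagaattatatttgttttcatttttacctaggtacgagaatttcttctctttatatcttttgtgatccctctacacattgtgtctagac
Fbxo28 at chr1:182341557-182341856, minus strand: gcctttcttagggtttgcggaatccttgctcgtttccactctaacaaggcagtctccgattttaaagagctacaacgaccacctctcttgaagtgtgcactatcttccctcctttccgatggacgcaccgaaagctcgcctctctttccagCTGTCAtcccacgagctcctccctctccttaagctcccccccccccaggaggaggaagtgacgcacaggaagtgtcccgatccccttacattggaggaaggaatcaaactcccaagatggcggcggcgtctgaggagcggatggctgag

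Asb12, with both motifs, had 3.29, 3.13, 3.15 and 3.10 in Prep1deltaSM muscles, against 3.29, 3.36, 3.55 and 2.94 in Prep1f/+ muscles (difference -0.12, unadjusted p = 0.393). The groups overlapped fully. Fbxl7 was at -0.03. By brightest probe, Fbxo10 and Fbxw7 were the lower members and Fbxo28 the higher one whose values stand above. Fbxw7 has 3 promoters and Fbxo10 has 2, of which 1 each is shown. A match describes the letters only, and no binding was measured here.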

How the data were processed

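Total RNA of 8 tibialis anterior muscles was hybridised in 1 colour (Cy3) to Agilent arrays of design 014868. Per the file headers, the deposited spot intensity (gProcessedSignal) was made with Feature Extraction 10.5.1.1, protocol GE1_107_Sep09, with background subtracted and was not normalized across arrays. Version 9.1 of Agilent Feature Extraction stands in the submitters' processing notes, and which version applies was not settled. The authors' deposited table of 32812 processed intensities was used as an alternative; its scale is linear, its medians 12.7 to 13.2, and how it was collapsed over probes is unknown.

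Outlier-flagged spots were set missing, the 75th percentile of each array was subtracted from log2 signals, a probe was kept (24488 of 41174) if 4 or more of the 8 arrays showed it well above background, and the brightest probe stood for a gene. Groups were compared in R 4.3.3 with limma 3.58.1; p-values of the 16016 genes were adjusted by Benjamini-Hochberg, and the fit was tested on simulated data. The number of arrays limits the precision. Slides each held 1 array of each group, so slide was a block in an alternative.

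One member, counted in the totals, is not reported here by name. Members and lists were chosen with earlier results of these data known. Named were the 8 members per direction with the smallest p, muscle receptors, members with known roles and those whose probes disagreed in sign by over 0.5; partner genes were named if in the core complexes or at an unadjusted p under 0.05. Names are those of the array; 89 of 90 symbols were in the RefSeq table, and Fbxo18 is Fbh1 there.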

Additional observations from a re-analysis of the deposited data

Results flagged for a closer look

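Within groups of 4 arrays, the highest or lowest array of a member was set against the rest of its group by its gap divided by the range. Of 90 such groups, those of the 40 named members and of 5 family means, 5 exceeded Dixon's 95% critical value for 4 samples; chance gives about 4.5. Prep1f/+ replicate 4 was the lowest for Fbxw13 (0.887), Asb8 (0.872) and Fbxw11 (0.857), and it is one of the controls that stood apart on the first principal component. Prep1deltaSM replicate 4 was the highest for Asb5 (0.858), a muscle-expressed receptor. Prep1f/+ replicate 1 was the highest for Fbxo28 (0.848), at the level of the Prep1deltaSM muscles.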

How the results depend on the processing

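The count of members past an adjusted p of 0.05 was 0 in each of the 17 alternatives, with the lowest adjusted p at 0.0948 for Asb7 on probes above background on all arrays. The authors' values, with 43 members among 11594 genes, gave 1 higher and 5 lower at an unadjusted p under 0.05 (14.0%, beside 15.3% of all genes), 3 without overlap (6.98%, beside 10.1%) and an F-box median of -0.055. The mean of a gene's probes gave 5 lower and an F-box median of -0.038. Higher members numbered 0 with median centring and 1 with no filter. With no filter, 14.4% of members were called in either direction, beside 9.09% of all genes. Omitting Prep1f/+ muscles 1 and 4 gave 7 higher and 27 without overlap; with 2 controls left, separation needs fewer arrays. Leaving out 1 array at a time gave 0 to 6 higher, 8 to 16 lower and 11 to 15 without overlap, F-box medians of -0.13 to -0.08 and Asb medians of -0.18 to -0.032. The 0 came without Prep1f/+ replicate 4, which also gave the Asb median of -0.18, and the 6 without Prep1f/+ replicate 1; 1 higher was left without Prep1deltaSM replicate 1, 3 or 4 or Prep1f/+ replicate 2 or 3, and 2 without Prep1deltaSM replicate 2. The cause of these shifts was not tested. With 1 array left out, 15.7% to 21.4% of members were without overlap, beside 12.6% or more of all genes in each fit. With all arrays these shares were 14.3% and 10.5%. The share rose for all genes as well as members, since separation needs fewer arrays when 1 is left out. Asb6 and Fbxo10 kept their sign and an unadjusted p under 0.05 in every setting run for them, and Asb7 in 16 of 17. The planned normexp correction on all spots was not used. Spots of very high local background on Prep1f/+ replicate 1 moved its 5th percentile to 2040, against 54.2 to 66.1 on the others. Leaving out those spots, a choice made after the data were seen, gave 4 higher and 12 lower (22.9% of members, beside 13.1% of all genes). Pairing by slide, 1 array of each group on each, gave 3 higher and 11 lower members, 0 of them past an adjusted p of 0.05, and raised the adjusted p of Pknox1 to 0.0619. Genes past an adjusted p of 0.05 over the array numbered 0 to 16 across alternatives, 16 with normexp. The difference of Fbxw13, a dim member, ran from 0.05 with normexp to 1.05 without Prep1f/+ replicate 2. Leaving out 1 array at a time alone moved it between 0.27 and 1.05, and the cause of this range was not tested.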
